A study of Mus musculus with 3 samples.

Results

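The immediate early genes described here are 10 genes, Fos, Fosb, Jun, Junb, Jund, Egr1, Atf3, Ier2, Ier3 and Nr4a1, out of 31730 genes counted in single lung mesenchymal cells of mouse pups. They were chosen by name, as a list of genes known to respond to tissue dissociation or stretch, and all 10 were found in the count matrix. The pups carried Fgf18CreERT2/+ (a tamoxifen-inducible Cre recombinase at the locus of the growth factor Fgf18), ROSATDTomato/+ (a red reporter that Cre switches on) and PdgfrαEGFP/+ (a green reporter at the platelet-derived growth factor receptor alpha locus). Every group shares these alleles and received tamoxifen on postnatal days 2 to 5, and all lungs were taken on day 7. Lungs were minced, digested warm with dispase and collagenase, and live cells were sorted, so every library passed through the same kind of dissociation and none was left undissociated. Each of 3 sort gates gave 1 droplet library. They are GFP-low tdT-negative (1284 cells), GFP-high tdT-negative (3347 cells) and GFP-high tdT-high (1511 cells), named the GFP-low, the GFP-high tdT-negative and the tdT-high gate below. A sorted population positive for tdTomato and negative for GFP was not analysed here. The sources used here do not say if 1 or more pups went into a sort.

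Immediate early genes are switched on within minutes of a stimulus, without new protein synthesis, when kinase signalling activates transcription factors such as SRF with its ternary complex partners and CREB that are already in the cell. Their short-lived transcripts encode mostly transcription factors. FOS and JUN family proteins pair to form AP-1, and the early products switch on both later genes and the inhibitors that end the response. In lung and other solid tissue these genes are known to respond to injury, growth factors and mechanical stretch, and to the warm enzymatic digestion used to free single cells.

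Each gate was sequenced once, so cells were not treated as replicates, nothing was tested and p-values are absent. UMIs (unique molecular identifiers, which count captured RNA molecules) were summed over the cells of a gate and deposited cell type and divided by all UMIs of those cells to give a level in UMIs per 1000000 (CPM). Brackets hold exact 95% intervals of the counts, which cover counting error only, and neither the spread over cells nor that over animals or sorts. Of the 10 deposited types, 14 combinations of gate and type held at least 50 cells, and only these are compared. A gene was compared where either side reached 20 CPM and was called higher or lower from 1.5-fold on the log2(CPM + 1) scale. The type names are the authors', and the summed markers listed for each type were highest in the cells so named. Adventitial fibroblast markers (Dcn, Pi16 and others) took 6159 and 11767 CPM in the 2 AdvFB groups and at most 2773 CPM elsewhere. Alveolar fibroblast markers (Npnt, Tcf21 and others) took 5224 to 18098 CPM in the MatFB groups and at most 2959 CPM elsewhere, and myofibroblast markers (Tgfbi, Acta2 and others) took 17919 to 20684 CPM in the MyoFB groups and up to 13463 CPM in other types. Of the 148 AdvFB cells of the GFP-low gate, 48 held at least 1 in 1000 UMIs of the contractile genes Acta2, Tagln, Myh11 and Actg2, against 3 of 328 in the GFP-high tdT-negative gate. The libraries held 26586489, 68692834 and 34506226 UMIs in the order given, and 4 cell barcodes occurred in 2 libraries.

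Levels of most of the 10 genes followed one another across groups, as described below, and the stretch before the transcription start is shown for the members that hold TGACG, the core shared by CREB and ATF binding sequences. RefSeq windows from 250 bases before to 50 after the start (GRCm38.p6) were at hand for 8 of the 10 genes, and not for Egr1 and Ier2. Motifs were sought in the 250 bases before the start alone. There TGACG, read on both strands, was in 5 of the 8 and in 17.9% of all 32536 such windows. The full palindrome TGACGTCA was in 0 of the 8 and 1.56% of all windows, the AP-1 motif TGACTCA in 0 and 4.45%, the CArG box to which SRF binds in 0 and 1.48%, and the EGR motif GCGGGGGCG in 2 (Fosb and Nr4a1) and 2.60%. TATAAA was in Fos alone of the 8 and in 12.3% of all windows. A match to letters is a description and not a bound site. A missing match says nothing of bases further away or of Egr1 and Ier2, which were not searched. The last 120 bases before the start are at chr12:85473770-85473889 for Fos (plus strand), chr7:19310046-19310165 for Fosb (minus), chr8:84978749-84978868 for Junb (minus), chr1:191183334-191183453 for Atf3 (minus) and chr15:101266726-101266845 for Nr4a1 (plus). Capitals mark TGACG or its reverse complement.
Fos: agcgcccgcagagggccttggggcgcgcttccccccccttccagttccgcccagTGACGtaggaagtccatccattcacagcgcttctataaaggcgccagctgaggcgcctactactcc
Fosb: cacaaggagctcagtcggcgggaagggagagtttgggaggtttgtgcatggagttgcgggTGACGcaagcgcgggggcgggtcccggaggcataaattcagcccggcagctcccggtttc
Junb: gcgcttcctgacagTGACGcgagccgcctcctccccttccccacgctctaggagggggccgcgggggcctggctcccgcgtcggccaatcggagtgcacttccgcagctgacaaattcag
Atf3: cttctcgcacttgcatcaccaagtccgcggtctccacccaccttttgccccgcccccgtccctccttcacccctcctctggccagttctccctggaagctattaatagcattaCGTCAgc
Nr4a1: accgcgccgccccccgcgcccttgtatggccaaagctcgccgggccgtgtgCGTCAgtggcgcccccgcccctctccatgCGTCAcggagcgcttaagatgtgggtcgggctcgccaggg
In Fos the marked bases lie 66 to 62 bases before the start, in Fosb 60 to 56 and in Junb 106 to 102. In Nr4a1 they lie 69 to 65 and 40 to 36 before it, and in Atf3 they end 3 bases before it. Outside the printed stretch, Fos holds the core once more, 129 to 125 bases before the start, and Nr4a1 holds it from 213 and from 233 bases before it. For Atf3 and Nr4a1, and by a few bases for Fosb, the RefSeq start lies within the longer gene span of GENCODE M21.

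AdvFB cells held the most immediate early RNA, and of the groups of at least 50 cells MatFB-Type 1 and MatFB-Type 2, both of the GFP-low gate, held the least. The 10 genes together took 8452 CPM in AdvFB of the GFP-low gate and 9225 CPM in AdvFB of the GFP-high tdT-negative gate. MatFB-Im,Cuff followed with 6078 and 7214 CPM in the same gates. The MyoFB and DivFB groups lay between 1749 and 3598 CPM. MatFB-Type 1 and MatFB-Type 2 of the GFP-low gate held 637 and 863 CPM. The few cells of these types in the GFP-high tdT-negative gate were not low: 16 MatFB-Type 1 cells held 4407 CPM and 44 MatFB-Type 2 cells 4753 CPM. The heat map of levels gives each gene, and the order of groups for single genes departed in places from that of the sum, as given below.

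**Figure D1:**
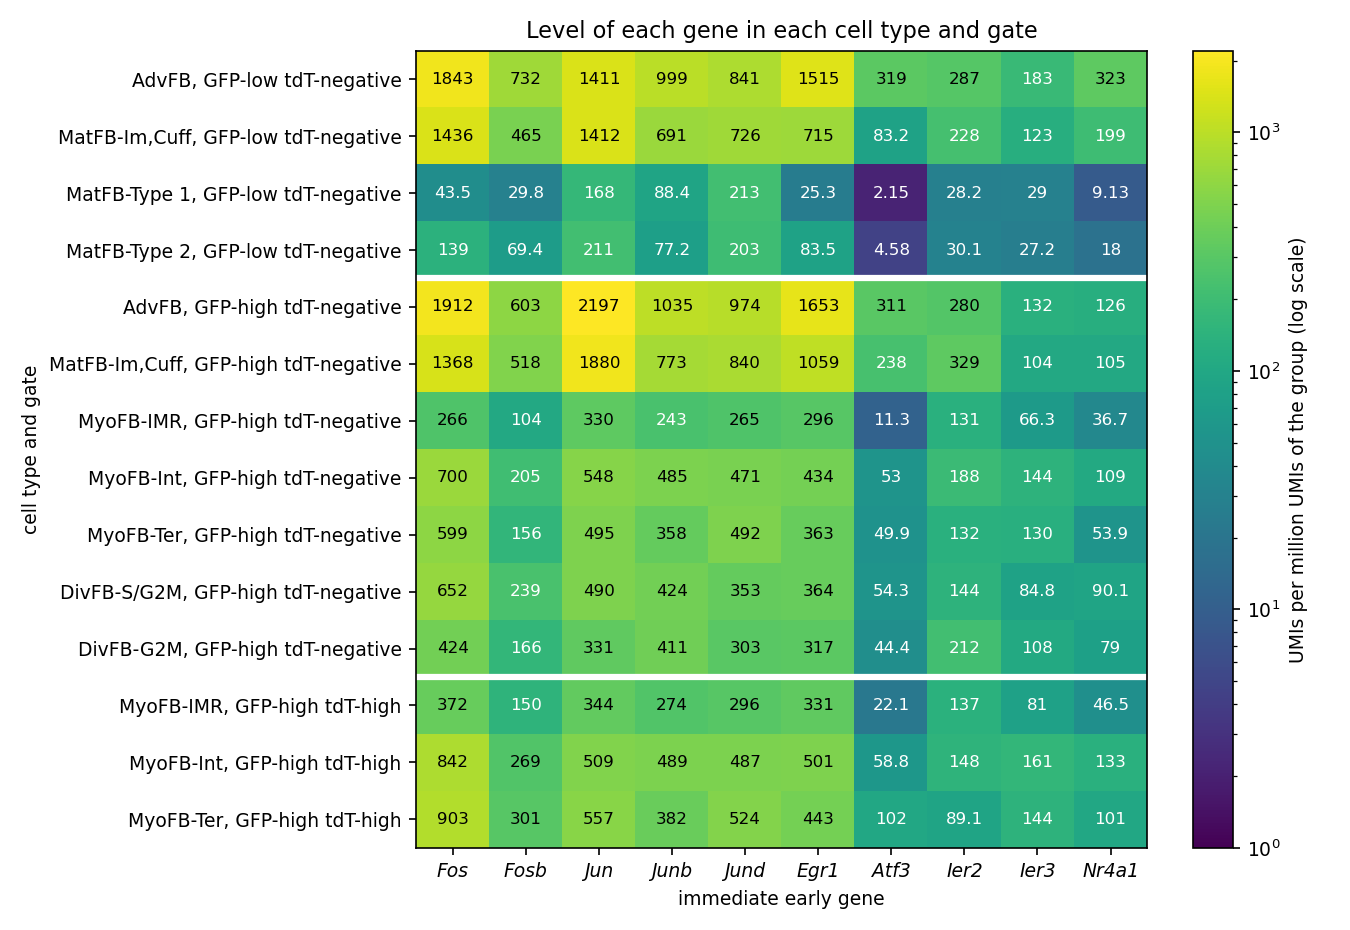
Level of each of the 10 genes (columns) in the 14 groups of at least 50 cells (rows, by gate), in UMIs per 1000000 UMIs of the group, on a logarithmic colour scale with the value printed in each cell. AdvFB and MatFB-Im,Cuff are high for most genes in both gates, as for Fos at 1368 to 1912 CPM, and MatFB-Type 1 and MatFB-Type 2 are low throughout.

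Fos, the AP-1 subunit that needs a JUN partner to bind DNA (chromosome 12, 85473890 to 85477273, GRCm38), spanned 43.9-fold over the 14 groups. In AdvFB it stood at 1843 CPM in the GFP-low gate and at 1912 CPM in the GFP-high tdT-negative gate, and at 1436 and 1368 CPM in MatFB-Im,Cuff of the same gates. With all cells of a type the gates lay close in both, with ratios of the GFP-high tdT-negative to the GFP-low gate of 1.037 [1.008 to 1.067] and 0.953 [0.911 to 0.996]. Without the contractile AdvFB cells the log2 ratio of Fos in AdvFB was 0.31. In the tdT-high gate Fos stood at 903 CPM in MyoFB-Ter, 842 CPM in MyoFB-Int and 372 CPM in MyoFB-IMR, against 599, 700 and 266 CPM in the GFP-high tdT-negative gate. The dividing cells of that gate held 652 CPM (DivFB-S/G2M) and 424 CPM (DivFB-G2M). MatFB-Type 2 held 139 CPM and MatFB-Type 1 43.5 CPM. Of the 13 pairs of neighbours in this order, 3 had overlapping intervals. Fosb, its close paralogue (chromosome 7, 19302696 to 19310051), followed the same course from 732 CPM in GFP-low AdvFB down to 29.8 CPM in MatFB-Type 1, a span of 24.6-fold with a median of 222 CPM.

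The JUN family genes differed in how far they spread. Jun, the central JUN protein of AP-1 (chromosome 4, 95049034 to 95052222), was highest in GFP-high tdT-negative AdvFB, at 2197 CPM, followed by MatFB-Im,Cuff of that gate at 1880 CPM. In the GFP-low gate the same types held 1411 and 1412 CPM, with overlapping intervals. No MyoFB or DivFB group passed 557 CPM, and MatFB-Type 1 was lowest at 168 CPM. Junb, which dampens JUN in many settings (chromosome 8, 84974484 to 84978718), ran from 1035 to 77.2 CPM. Jund, the JUN member known for steady expression in resting cells (chromosome 8, 70698949 to 70700616), spanned least of all 10 genes, 4.81-fold, from 974 CPM in GFP-high tdT-negative AdvFB to 203 CPM in MatFB-Type 2. The make-up of AP-1 RNA therefore differed between groups: 2.19 Fos UMIs were counted per Jund UMI in GFP-low AdvFB and 0.204 in MatFB-Type 1 of the same library. The GENCODE annotation lists genes on the opposite strand over Jun, Junb, Jund and Atf3, and no gene on the same strand overlapped any of the 10.

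Egr1, Atf3 and Nr4a1 had wide spans. Egr1, a zinc-finger factor induced through SRF, ran 65.5-fold, from 1653 CPM in GFP-high tdT-negative AdvFB to 25.3 CPM in MatFB-Type 1. Atf3, a stress-induced member of the ATF family (chromosome 1, 191170296 to 191218039), ran from 319 CPM in GFP-low AdvFB to 2.15 CPM (8 UMIs) in MatFB-Type 1. That is a ratio of 148, whose lower side rests on few UMIs. MatFB-Im,Cuff was split for Atf3, at 83.2 CPM in the GFP-low and 238 CPM in the GFP-high tdT-negative gate. Nr4a1, an orphan nuclear receptor (chromosome 15, 101254269 to 101274795), was the member whose highest values lay in the GFP-low gate alone. AdvFB held 323 CPM and MatFB-Im,Cuff 199 CPM there, and all other groups held 133 CPM or less.

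The small early genes Ier2 and Ier3 were the most even after Jund. Ier2, a nuclear growth-response gene (chromosome 8, 84661331 to 84662852), peaked in GFP-high tdT-negative MatFB-Im,Cuff at 329 CPM and was lowest in MatFB-Type 1 at 28.2 CPM. Ier3, known as a survival and stress-response gene (chromosome 17, 35821684 to 35822923), differed most from the others: after GFP-low AdvFB (183 CPM), its highest groups were MyoFB-Int of the tdT-high gate (161 CPM) and of the GFP-high tdT-negative gate (144 CPM) and MyoFB-Ter of the tdT-high gate (144 CPM). For both genes 9 of the 13 neighbours in the order had overlapping intervals. Across the 14 groups each member was correlated with the mean of the other 9 at a Pearson r between 0.87 (Ier3) and 0.98 (Fos, Fosb and Junb). This is a description, since groups of the same library share their handling.

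The first question was how cell types of the same gate differ, where both sides come from the same sort and library. In the GFP-low gate all 10 genes were called higher in AdvFB than in MatFB-Type 2, the most frequent type, against 20.6% of all 7593 genes compared (21.7% were lower). Fos was 13.2-fold higher [12.6 to 13.9], Egr1 18.1-fold [17.0 to 19.4], Nr4a1 17.9-fold [15.6 to 20.7] and Atf3 69.6-fold [53.7 to 91.8]. Jund was lowest at 4.15-fold [3.94 to 4.37]. The members' median log2 ratio was 3.53, against -0.08 over all genes compared. All 10 stayed past 1.5-fold under each of the 13 alternatives, with medians of 3.06 to 3.89, among them AdvFB without its contractile cells (3.41) and cells of 2% to 4% mitochondrial UMIs alone (3.06). Among the contractile AdvFB cells Fos stood at 2504 CPM and Nr4a1 at 516 CPM, against 1546 and 236 CPM in the other 100 cells, while Jun (1249 against 1484 CPM) was not higher there. These 48 cells held little of the adventitial marker Dcn, 144 against 3812 CPM, which went against the AdvFB name. Their Acta2, 4666 against 53.9 CPM, was high by the rule that chose them.

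MatFB-Im,Cuff of the GFP-low gate stood above MatFB-Type 2 in the same way, with all 10 genes called higher against a background of 9.12% (9.32% lower). Fos was 10.3-fold [9.79 to 10.9] and Egr1 8.56-fold [7.99 to 9.18] higher, and the members' median log2 ratio was 2.98, with -0.01 over all genes. Again all 10 calls held under each of 12 alternatives, at medians of 2.62 to 3.50. MatFB-Type 1 went slightly the other way. Of its 8 genes with enough counts, Fos (0.31 of the MatFB-Type 2 level [0.27 to 0.37]), Egr1 (0.30 [0.24 to 0.37]) and Fosb (0.43 [0.35 to 0.52]) were called lower, against 5.17% of all genes, and none higher, against 5.84%. Jund (1.05), Ier3 (1.07) and Junb (1.14) lay near MatFB-Type 2. Atf3 and Nr4a1 were under 20 CPM in both types and were not compared. The 3 comparisons share the MatFB-Type 2 cells. Median mitochondrial shares moved with these levels: 2.35% in AdvFB, 3.03% in MatFB-Im,Cuff, 3.89% in MatFB-Type 1 and 3.90% in MatFB-Type 2.

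**Figure D2:**
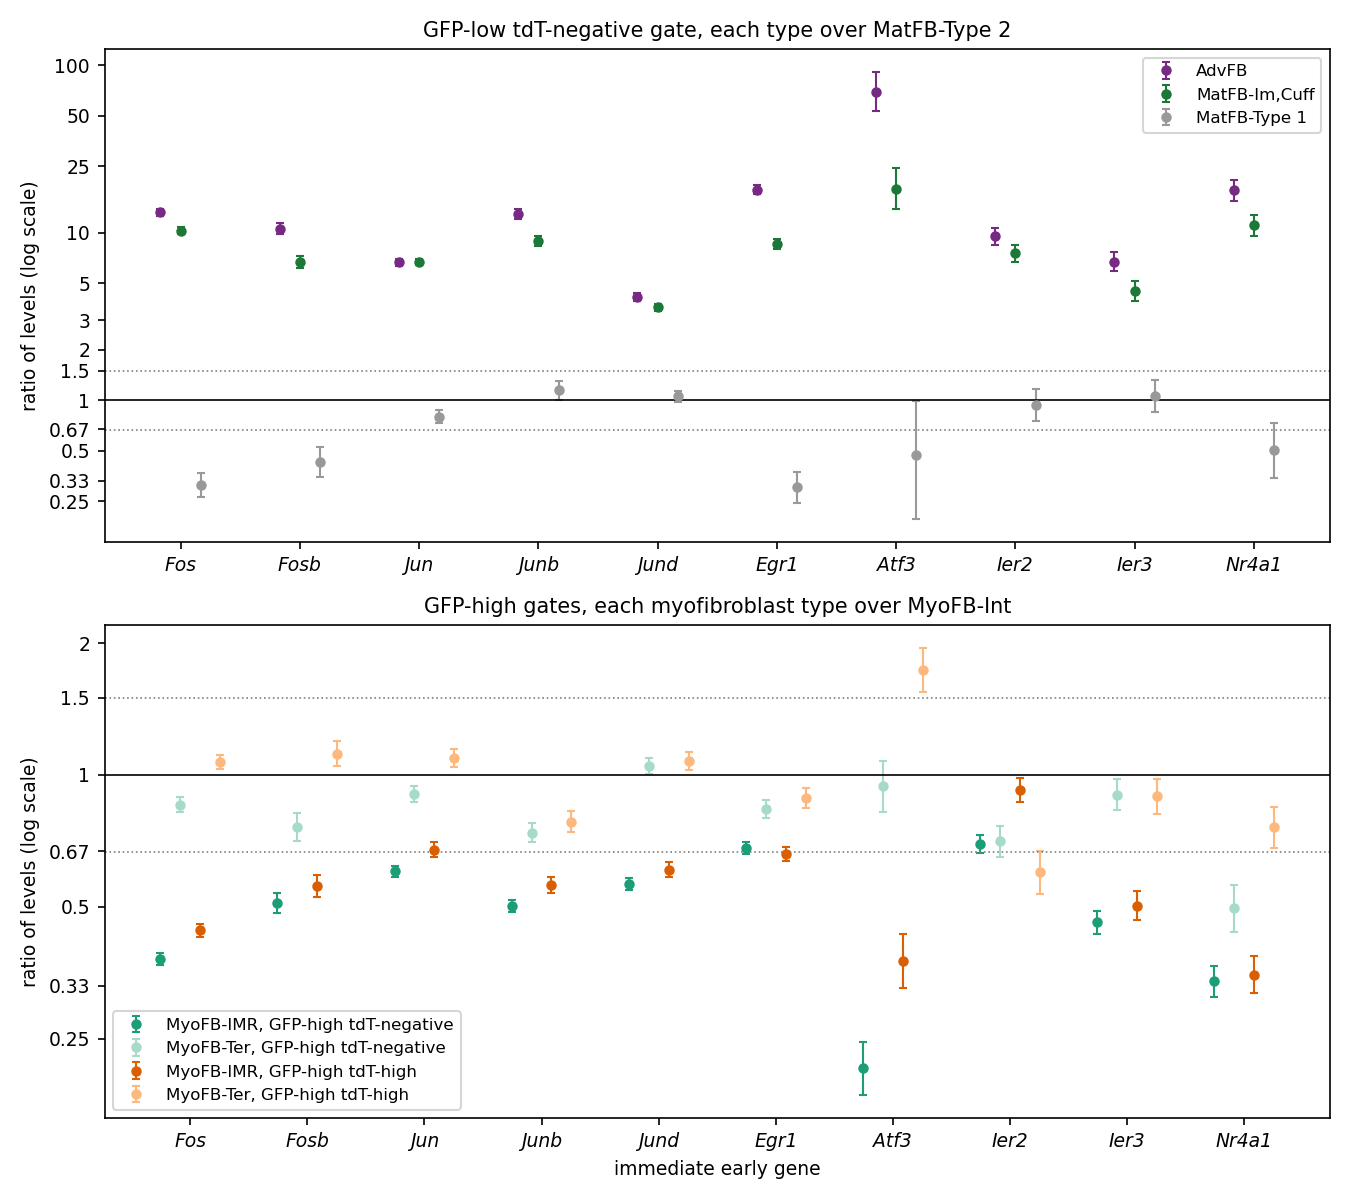
Ratio of levels (log axis, 1 at the solid line, 1.5-fold at the dotted lines) of each gene between types of the same gate, with exact 95% counting intervals as bars. Above, types of the GFP-low gate over MatFB-Type 2, where AdvFB and MatFB-Im,Cuff lie above 1.5-fold for all 10 genes; below, MyoFB types over MyoFB-Int in the 2 GFP-high gates, where MyoFB-IMR lies below 1 for all 10.

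In the GFP-high tdT-negative gate the reference was MyoFB-Int, the most frequent type there. AdvFB had 7 of 10 genes called higher, against 15.5% of all genes: Jun 4.01-fold [3.93 to 4.10], Egr1 3.81-fold, Atf3 5.87-fold [5.50 to 6.27], Fosb 2.94-fold, Fos 2.73-fold, Junb 2.14-fold and Jund 2.07-fold. Ier2 (1.49), Nr4a1 (1.16) and Ier3 (0.92) were not called, and Ier3 changed sign with TMM factors (log2 ratio -0.12 to 0.07) and with size factors (0.08). Scaling by median-of-ratios size factors, which assume that most genes do not differ, moved the median log2 ratio of the genes compared up by 0.22 and turned its split of 15.5% higher and 25.1% lower into 20.2% and 16.1%. The member count was 7 or 8 under every alternative. MatFB-Im,Cuff had 8 of 10 called higher against 16.3%, led by Atf3 (4.48-fold [4.04 to 4.97]) and Jun (3.43-fold [3.31 to 3.56]), and not Nr4a1 (0.97) or Ier3 (0.72). This call did not hold among cells of similar mitochondrial share. In cells with 2% to 4% mitochondrial UMIs (53 MatFB-Im,Cuff and 951 MyoFB-Int cells, a choice made after seeing the data) 2 were called higher and 2 lower, with a median log2 ratio of -0.10 in place of 0.90. The same restriction left 7 calls in AdvFB, on 53 cells.

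MyoFB-IMR held less immediate early RNA than MyoFB-Int in both GFP-high gates. In the tdT-negative gate 8 of 10 genes were called lower, against 4.37% of all genes. Fos stood at 266 against 700 CPM, a ratio of 0.38 [0.37 to 0.39], Atf3 at 11.3 against 53.0 CPM (0.21 [0.19 to 0.25]) and Nr4a1 at 36.7 against 109 CPM (0.34 [0.31 to 0.37]). Egr1 (0.68) and Ier2 (0.69) were lower by less than 1.5-fold. In the tdT-high gate 8 of 10 were again called lower, against 5.99%: Fos at 0.44 [0.43 to 0.46], Nr4a1 at 0.35 [0.32 to 0.39] and Atf3 at 0.38 [0.33 to 0.43] of the MyoFB-Int level, with Jun (0.68) and Ier2 (0.92) not called. Members' median log2 ratios were -0.98 and -0.83, against 0.02 and 0.04 over all genes. TMM scaling moved the median of the genes compared down by 0.09 and 0.13, turned the splits of higher and lower genes from 3.79% and 4.37% to 2.78% and 5.75% and from 5.85% and 5.99% to 4.10% and 8.05%, and called 10 and 9 members lower. At 2-fold in place of 1.5-fold, 4 and 3 members were lower. Median mitochondrial shares were close between the 2 types, at 2.80% and 2.70% in the tdT-negative and 3.46% and 3.28% in the tdT-high gate, and among cells of 2% to 4% the counts were 8 and 7.

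MyoFB-Ter differed little from MyoFB-Int. In the tdT-negative gate Nr4a1 alone was called lower, at 53.9 against 109 CPM (0.50 [0.44 to 0.56]), with 2.30% of all genes lower. In the tdT-high gate Atf3 was called higher, at 102 against 58.8 CPM (1.74-fold [1.55 to 1.95]; 5.96% of all genes), and Ier2 lower, at 89.1 against 148 CPM (0.60 [0.54 to 0.67]; 6.23%). These single calls are near the background share. The comparisons within a gate share its MyoFB-Int cells. Dividing cells of the GFP-high tdT-negative gate had few calls. DivFB-S/G2M (71 cells) had Ier3 lower at 0.59 of MyoFB-Int [0.50 to 0.69], against 11.7% of all genes. Among cells of 10000 to 30000 UMIs 8 members were lower, but only 29 DivFB-S/G2M cells were left, against 1137 of MyoFB-Int. DivFB-G2M (91 cells) had Fos (0.61), Jun (0.60) and Jund (0.64) lower, against 9.62%, and 5 members with TMM scaling, which moved the median of the genes compared down by 0.17 and turned the split of 14.9% higher and 9.62% lower into 9.09% and 14.9%.

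The second question was whether the same cell type differs between gates. AdvFB and MatFB-Im,Cuff could be set between the GFP-low and the GFP-high tdT-negative gates. Nr4a1 was the member called lower in the GFP-high gate in both types. It stood at 126 against 323 CPM in AdvFB, a ratio of 0.39 [0.36 to 0.42], and at 105 against 199 CPM in MatFB-Im,Cuff (0.53 [0.45 to 0.61]). In AdvFB Jun was the only other call, at 2197 against 1411 CPM (1.56-fold higher [1.51 to 1.61]). The background was 7.82% of genes higher and 8.92% lower, so these single calls are near that share. Without the contractile AdvFB cells the log2 ratio of Nr4a1 went from -1.35 to -0.90. That of Jun went from 0.64 to 0.575, just short of a call, and that of Atf3 from -0.03 to 0.61, which passed 1.5-fold. The member called higher in AdvFB thus changed from Jun to Atf3 without these cells. In MatFB-Im,Cuff Atf3 was 2.86-fold higher [2.48 to 3.28] in the GFP-high gate, with 17.0% of all genes higher and 11.1% lower (13.9% and 14.0% with TMM scaling). The single calls of Atf3 and Nr4a1 in this type are likewise not above the background share by much. The cells named MatFB-Im,Cuff differed between the gates in their markers: alveolar fibroblast markers took 12429 CPM in the GFP-low and 5224 CPM in the GFP-high gate, and adventitial ones 1298 and 2773 CPM. Cells with more UMIs of the first list than of the second numbered 203 of 205 and 98 of 110. Among them the log2 ratios were 1.58 for Atf3 and -0.83 for Nr4a1. Few cells were dropped, and those kept still differed, with the adventitial marker Dcn at 52.8 CPM in the GFP-low and 436 CPM in the GFP-high gate. This restriction therefore cannot show if the calls depend on the marker difference. Fos did not pass 1.5-fold in AdvFB (1.04) or in MatFB-Im,Cuff (0.95).

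These values depended on the cells' mitochondrial share, whose median was 2.35% and 1.46% in AdvFB and 3.03% and 2.11% in MatFB-Im,Cuff of the GFP-low and the GFP-high gate. Among cells of 2% to 4%, 8 of the 10 members were called lower in GFP-high MatFB-Im,Cuff (53 against 149 cells), with log2 ratios of -1.34 for Fos, -2.04 for Nr4a1 and -0.32 for Atf3. In AdvFB (53 against 80 cells) 3 were lower and 0 higher, with -1.79 for Nr4a1 and -1.07 for Atf3. Nr4a1 was thus lower with and without this restriction, while the direction of Atf3 was not kept. A further 44 MatFB-Type 2 cells of the GFP-high tdT-negative gate were under the minimum of 50. They held 877 Fos UMIs, a level of 986 CPM, while the 651 cells of the GFP-low gate held 1825, a level of 139 CPM. Likewise 16 MatFB-Type 1 cells of that gate held 234 Fos UMIs (905 CPM) and the 199 of the GFP-low gate 162 (43.5 CPM). The median mitochondrial share of the 44 cells was 2.42%.

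**Figure D3:**
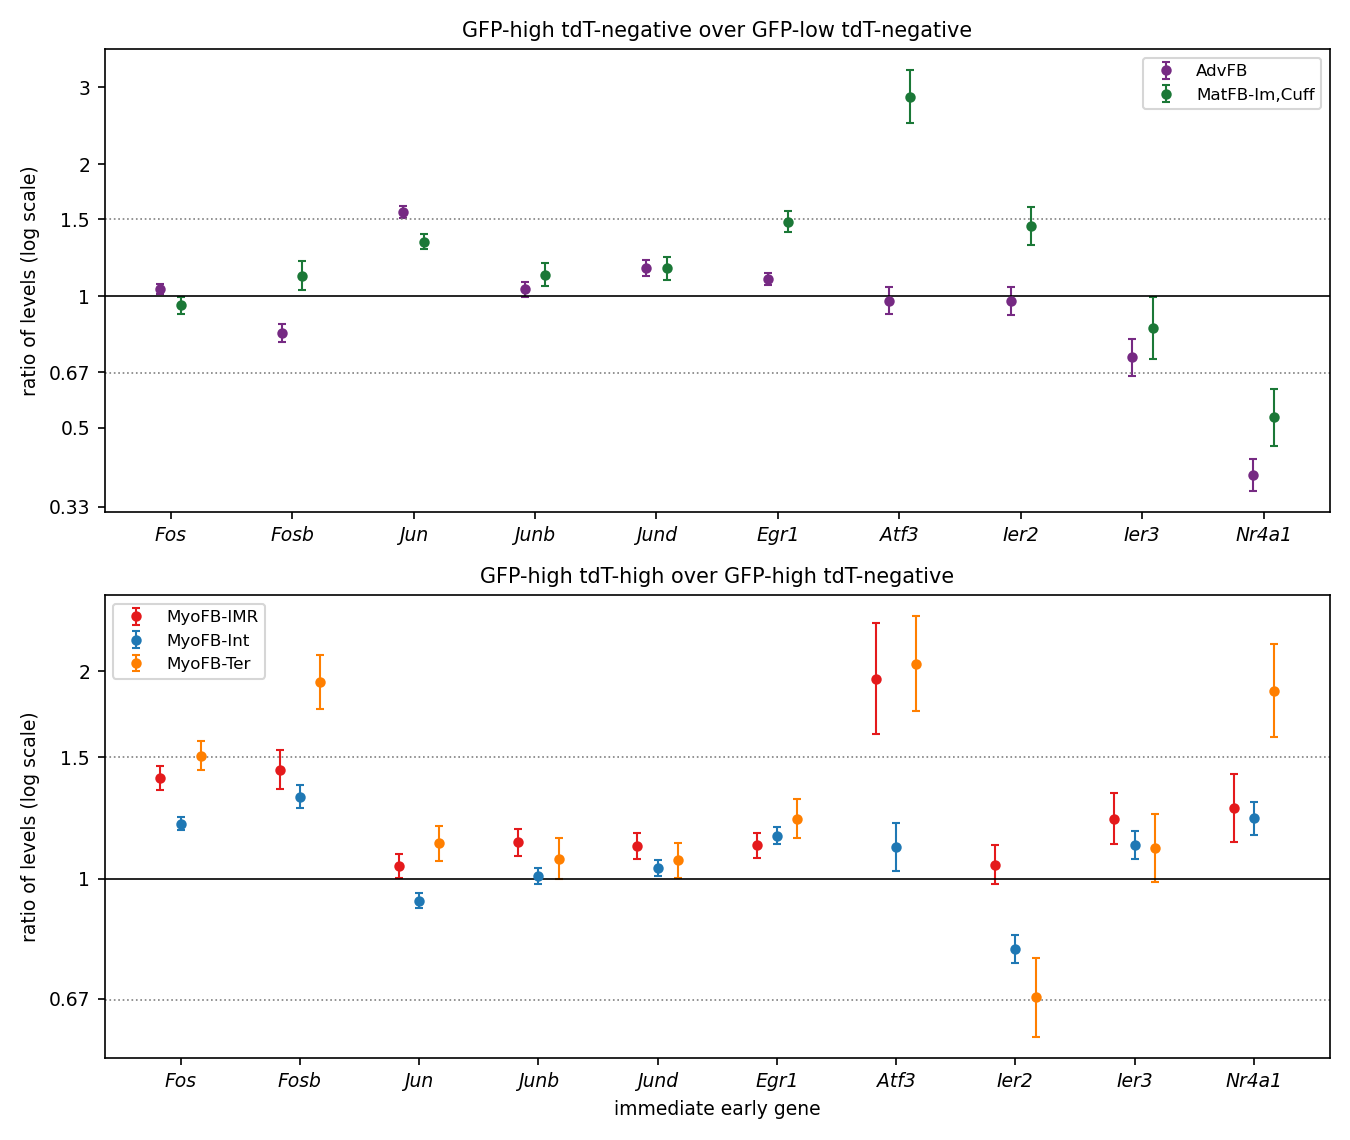
Ratio of levels (log axis, 1 at the solid line, 1.5-fold at the dotted lines) of each gene between gates in the same cell type, with exact 95% counting intervals. Above, the GFP-high tdT-negative over the GFP-low gate, where Nr4a1 lies below 1 in both types; below, the tdT-high over the GFP-high tdT-negative gate, where Fosb and Atf3 are highest in MyoFB-Ter, at 1.93 and 2.05.

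Between the 2 GFP-high gates, which differ in the Fgf18-Cre label, all 3 MyoFB types could be compared. MyoFB-Ter differed most. Fosb stood at 301 CPM in the tdT-high and 156 CPM in the tdT-negative gate, 1.93-fold higher [1.76 to 2.11]. Atf3 stood at 102 against 49.9 CPM (2.05-fold [1.75 to 2.40]), Nr4a1 at 101 against 53.9 CPM (1.87-fold [1.61 to 2.19]) and Fos at 903 against 599 CPM (1.51-fold [1.44 to 1.58]). These 4 calls compare with 6.75% of all genes higher and 10.0% lower. Ier2 was the exception, at 89.1 against 132 CPM (0.67 [0.59 to 0.77]), just short of a call. In MyoFB-IMR Atf3 alone was called, at 22.1 against 11.3 CPM (1.95-fold higher [1.62 to 2.35]; 1.82% of all genes were higher and 0.890% lower), with Fosb at 1.44 and Fos at 1.40. In MyoFB-Int no member was called, against 2.91% of genes higher and 2.35% lower, with Fosb at 1.31, Fos at 1.20 and Ier2 at 0.79. Jun, Junb and Jund lay between 0.93 and 1.13 in all 3 types. Median mitochondrial shares were higher in the tdT-high gate (3.28% to 3.64%) than in the tdT-negative gate (2.70% to 2.88%), and median UMIs per cell 19853 to 23762 against 16669 to 19461. Among cells of 2% to 4% the counts called higher were 5 in MyoFB-Ter, 3 in MyoFB-IMR and 1 in MyoFB-Int. Among cells of 10000 to 30000 UMIs they were 3 in MyoFB-Ter and 1 in MyoFB-IMR.

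Over all cells of a library, where the mix of types enters each sum, few members passed 1.5-fold. The 10 genes together took 2829, 3611 and 3056 CPM in the GFP-low, the GFP-high tdT-negative and the tdT-high library. In the GFP-high tdT-negative over the GFP-low library Ier2 (181 against 99.7 CPM, 1.82-fold [1.74 to 1.90]) and Ier3 (113 against 68.6 CPM, 1.64-fold [1.56 to 1.73]) were called higher, against 17.6% of all genes. AdvFB and MatFB-Im,Cuff were the only types of at least 50 cells in both libraries. With these types alone, weighted alike, the log2 ratio of Ier3 turned from 0.71 to -0.37. In the tdT-high over the GFP-high tdT-negative library Jun alone was called, at 460 against 715 CPM (0.64 [0.63 to 0.66]). Of all genes compared there, 4.23% were lower and 2.90% higher. With MyoFB-IMR, MyoFB-Int and MyoFB-Ter alone, weighted alike, Jun stood at a log2 ratio of 0.04. In the tdT-high over the GFP-low library Ier3 was called higher (1.89-fold [1.79 to 1.99]; 16.4% of genes). Comparisons of whole libraries share libraries with one another. Directions of Fosb over all cells, and of Jund and Nr4a1 in the tdT-high over the GFP-low library, changed with scaling (Fosb from 0.02 to -0.07 and from 0.04 to -0.08 with TMM, Nr4a1 from 0.09 to -0.03 with TMM, Jund from 0.12 to -0.005 with size factors). Size factors moved the median log2 ratio of the genes compared by -0.09 in the GFP-high tdT-negative and by -0.13 in the tdT-high over the GFP-low library.

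Single cells of a type differed widely. Each cell was thinned to 5000 UMIs so that cells of different depth could be compared. AdvFB of the GFP-low and the GFP-high tdT-negative gate held a mean of 38.8 and 44.1 UMIs of the 10 genes per cell, near their medians, and in the other groups the median was well below the mean. In GFP-high tdT-negative AdvFB the median cell held 36 UMIs of the 10 genes, the 10th percentile 2 and the 90th 105. In GFP-low AdvFB these values were 40, 2 and 82.3. MatFB-Im,Cuff had a far lower median, 12 in the GFP-low and 8 in the GFP-high tdT-negative gate, but 90th percentiles of 81 and 84.1. MyoFB-Int of the latter gate had the same median, 8, with a 90th percentile of 43, so these 2 groups shared their median and differed in their upper cells. MyoFB-IMR medians were 4 and 5 and MyoFB-Ter medians 7 and 5.5 in the tdT-negative and the tdT-high gate. In MatFB-Type 1 and MatFB-Type 2 the median cell held 1 UMI, and 55 of 199 and 203 of 651 cells held 0. The highest MatFB-Type 2 cell still reached 76, and the top 10% of its cells held 64.5% of these UMIs, against 27.4% in GFP-low AdvFB. In the 44 MatFB-Type 2 cells of the GFP-high tdT-negative gate the median was 7.5.

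**Figure D4:**
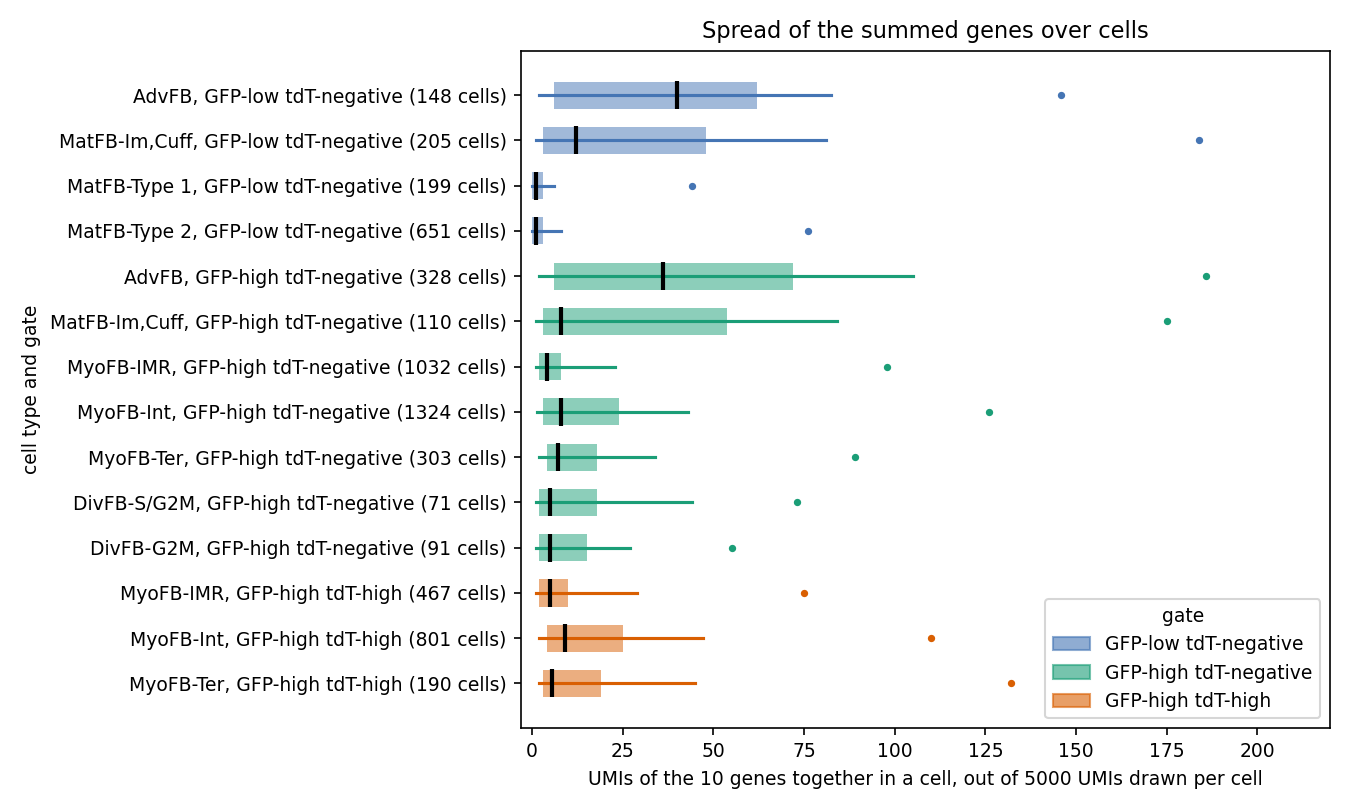
UMIs of the 10 genes together per cell after thinning to 5000 UMIs, for the 14 groups: black tick, median; bar, 25th to 75th percentile; line, 10th to 90th percentile; dot, highest cell. Medians reach 40 and 36 in AdvFB and 1 in MatFB-Type 1 and MatFB-Type 2, while single cells reach 44 to 186 in every group.

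The share of cells with a Fos UMI after thinning followed the levels. In AdvFB it was 68.2% (exact Clopper-Pearson 95% interval 60.1 to 75.6) in the GFP-low gate and 71.6% (66.4 to 76.5) in the GFP-high tdT-negative gate. In MatFB-Type 2 it was 12.7% (10.3 to 15.6) and in MatFB-Type 1 9.55%. With all UMIs the shares of GFP-high AdvFB, MatFB-Type 2 and MatFB-Type 1 were 83.5%, 22.4% and 17.1%. No type here is known to lack Fos, so no background share can be taken from one. RNA free in the droplets was not measured. Jund was seen in the most MatFB-Type 2 cells, 53.8%, and Atf3 in the fewest, 1.23%. In GFP-low AdvFB the shares ran from 43.9% for Ier3 to 85.8% for Jun and Jund.

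Within a type the same cells tended to be high for several members. Over the 8 groups of at least 200 cells the median Pearson r across cells, on log counts after thinning, was 0.75 for Fos and Junb, 0.69 for Fos and Fosb and 0.69 for Fos and Egr1. Jund was least tied to the others, at 0.20 with Nr4a1 and 0.20 with Atf3. The strongest pair in any group was Fos and Jun in GFP-high tdT-negative AdvFB, at 0.86 over 328 cells. These values are descriptions of cells that share a library, and low counts hold them down.

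The cells with much immediate early RNA had a lower mitochondrial share and more UMIs in all 14 groups. Across the cells of a group, the thinned sum of the 10 genes was correlated with the percent of mitochondrial UMIs at a Pearson r of -0.16 to -0.47 and with the log of UMIs per cell at 0.19 to 0.44. Cells of each group were ordered by mitochondrial share and cut into 3 equal sets. In MatFB-Type 2 of the GFP-low gate the summed level went from 1569 CPM in the lowest set to 271 CPM in the highest, and in GFP-high tdT-negative MatFB-Im,Cuff from 10972 to 1523 CPM. In GFP-high tdT-negative MyoFB-Int it went from 3990 to 2290 CPM and in GFP-low AdvFB from 9524 to 5774 CPM. In the set of lowest mitochondrial share the 2 MyoFB-IMR groups held 2058 and 2457 CPM and the 2 MyoFB-Int groups 3990 and 4131 CPM. By UMIs per cell the sum in MatFB-Type 2 went from 374 CPM in the shallowest to 1248 CPM in the deepest set. What part cell quality has in these levels was not tested.

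**Figure D5:**
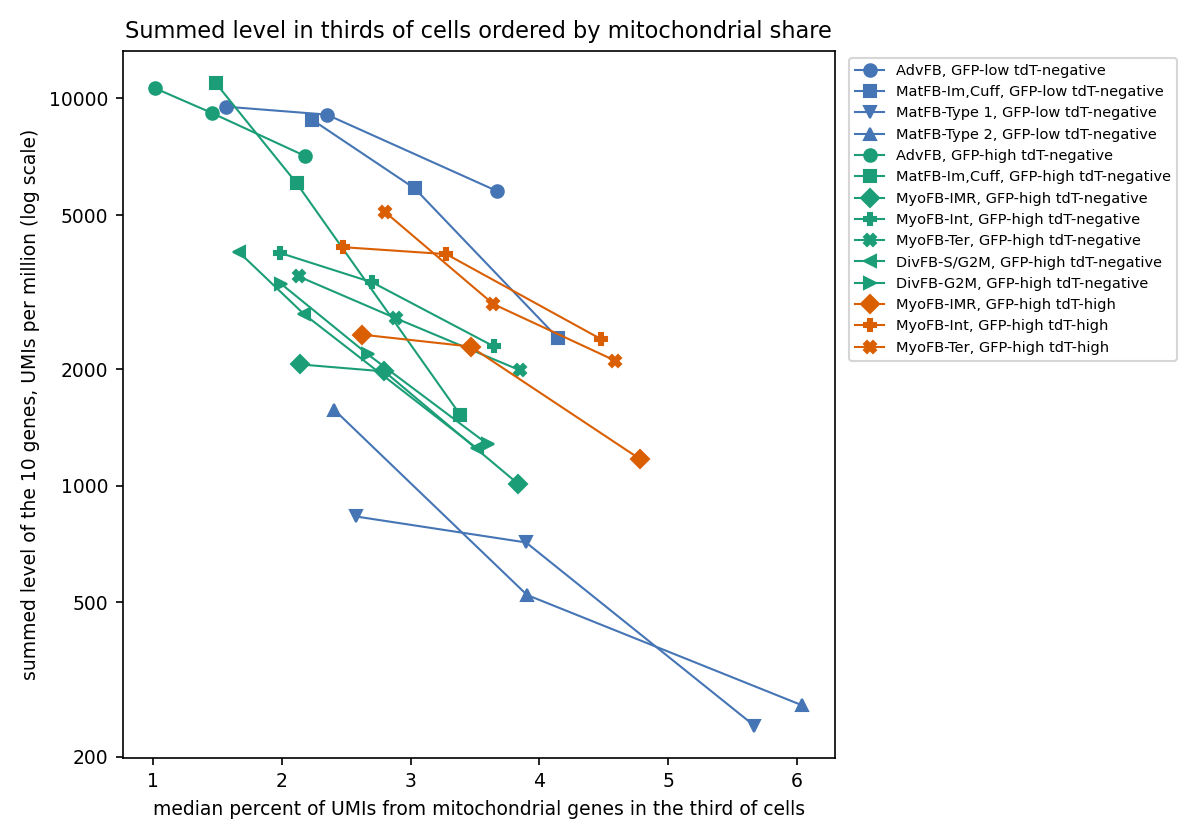
Summed level of the 10 genes (log axis, CPM) in 3 equal sets of cells of each group ordered by mitochondrial share (points, at the median share of the set; colours give gates, symbols give types). Every line goes down from left to right, as in MatFB-Type 2 from 1569 to 271 CPM.

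Most other genes of the early response followed the 10 members in AdvFB and MatFB-Im,Cuff over MatFB-Type 2 of the GFP-low gate, which is 1 library. In GFP-low AdvFB over MatFB-Type 2, 7 of 7 compared genes of other AP-1 and ATF factors were higher, led by Maff (10.1-fold) and with Atf4 at 116 against 60.3 CPM. Of 12 other early transcription factors 10 were higher and 1 lower: Klf4, a Krüppel-like factor, stood at 295 against 5.72 CPM and Klf2 at 403 against 20.5 CPM, while Cebpb was lower (0.52). Of 19 feedback inhibitors and RNA decay factors 16 were higher, among them Zfp36, which speeds decay of AU-rich early transcripts (9.88-fold), Gadd45g (9.68-fold) and Btg2 (5.72-fold). Of 13 heat shock genes 9 were higher, led by Hsph1 (4.58-fold) and Dnajb1 (4.49-fold). Of 11 SRF cofactors and kinases 3 were higher, such as Mrtfa (2.08-fold), and 2 lower, such as Mapk14 (0.31), which is near the background. Over all genes compared, 20.6% were higher and 21.7% lower. MatFB-Im,Cuff over MatFB-Type 2 gave 10 of 11 early factors, 12 of 17 feedback genes and 10 of 13 heat shock genes higher, against 9.12% of all genes. The stretch-gated channel genes did not follow. Piezo2 was lower in AdvFB (0.49) and Piezo1 was not called (0.80), and in MatFB-Im,Cuff neither was called (0.97 and 1.23). Trpv4 and Trpc6 were under 20 CPM.

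In MyoFB-IMR against MyoFB-Int, 9 of 11 early factors were lower in the tdT-negative and 8 of 11 in the tdT-high gate, led by Klf4 (0.25 and 0.31 of the MyoFB-Int level) and Nr4a3 (0.31 and 0.42). Of the feedback genes 7 of 17 and 10 of 19 were lower, with Dusp1, a phosphatase that ends MAP kinase signalling, at 0.40 and 0.42. Of 13 heat shock genes 5 were lower in each gate, with Hsph1 at 0.42 and 0.40. None of the 11 SRF cofactors and kinases was called in either gate. Among genes known to respond to stretch through YAP and SRF, 5 of 9 were lower in each gate, led by Thbs1 (0.34 and 0.36). The stretch-gated channel gene Piezo2 went the other way, at 377 against 119 CPM (3.16-fold higher) and at 248 against 32.5 CPM (7.63-fold). Trpc6 was not called in the tdT-negative gate (1.38) and was higher in the tdT-high gate (2.18-fold). Piezo1 and Trpv4 were under 20 CPM. Of all genes compared, 4.37% and 5.99% were lower and 3.79% and 5.85% higher in the 2 gates. In MyoFB-Ter of the tdT-high over the tdT-negative gate, 4 of 11 early factors were higher, with Nr4a2 at 104 against 37.5 CPM and Nr4a3 at 2.18-fold, and 4 of 18 feedback genes higher and 2 lower, with Gadd45g at 2.70-fold. No heat shock gene was called there, and the channel genes Piezo2 (0.067) and Trpc6 (0.61) were lower. Of the YAP and SRF genes, Thbs1 was called higher there (1.90-fold), and Actg1 (0.53) and Tpm4 (0.66) were called lower. Of all genes compared, 6.75% were higher and 10.0% lower, so the feedback genes called lower are near the background. These lists were chosen with earlier results known and are described by their counts alone.

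The genes most like the members over the 14 groups, of 4625 non-member genes above 20 CPM in every group, were mostly of the same lists. Btg2, an antiproliferative early gene, had a Pearson r of 0.97 with the members' mean and ran from 729 to 92.4 CPM. Zfp36 (0.96) and Socs3 (0.95), an inhibitor of cytokine signalling, came next. Atf4 (0.93), Id3 (0.93), Cst3 (0.92), Ppp1r10 (0.92) and Bag3 (0.92) completed the 8 named. Btg2, Zfp36, Socs3, Id3, Cst3, Ppp1r10 and Bag3 were lowest in MatFB-Type 1, and Atf4 in MatFB-Type 2.

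Markers of other cells were not equal between groups, and smooth muscle and pericyte markers were not low in all of them. The smooth muscle markers together took 3885 CPM in GFP-low AdvFB and 107 CPM in GFP-high tdT-negative AdvFB, against 97.5 to 5164 CPM elsewhere. In the AdvFB groups, which held the most immediate early RNA, 10 endothelial markers together took 182 and 321 CPM against 24.1 to 135 CPM elsewhere, mainly Ramp2 and Tek. In the GFP-low AdvFB cells the endothelial genes Kdr and Cldn5 had 0 UMIs, and Pecam1 stood at 29.9 CPM. The 8 pericyte markers took 2707 and 2160 CPM in AdvFB against 56.2 to 1068 CPM elsewhere, of which Postn, also made by fibroblasts, gave 2036 and 1853 CPM. The 12 immune markers took 27.7 and 36.4 CPM in AdvFB and 9.17 to 43.9 CPM elsewhere, and the 12 epithelial markers at most 46.2 CPM anywhere. Mesothelial markers took at most 103 CPM in any group. The part of these cells in the results was not tested. Doublets were not removed.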

How the data were processed

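Whole-cell UMI counts of 1 library for each of 3 sort gates were used, with the authors' deposited cell type for each cell. Per the submitters' processing notes, reads were processed with Cell Ranger 7.0.0 on mm10. The deposited counts are raw UMI counts for each gene and cell, and the deposited percent of mitochondrial UMIs is the authors' value for each cell. The sources used here name neither the authors' cell filters nor their method of type calling. Kept cells had at least 2504 genes and at most 19.3% mitochondrial UMIs, and doublets were not removed. Per-sample columns left unused numbered 0.

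Counts were summed over the cells of a gate and type and scaled to UMIs per 1000000 of that sum (CPM). Groups of at least 50 cells were compared, over genes at 20 CPM or more in the higher group, and 1.5-fold was called. Calls and log2 ratios used CPM + 1, while the folds and ratios printed with their intervals are of CPM without an added constant. Intervals are exact at 95%: Poisson for a level, conditional binomial for a ratio and Clopper-Pearson for a share of cells. They cover counting error only. For values per cell, cells were thinned at random to 5000 UMIs, and none held fewer. With 1 library in each group no model was fitted across genes and no p-value was computed. The ratio and interval steps were tested on simulated data first. The work used Python 3.11.15 with numpy 2.4.6, scipy 1.17.1 and pandas 2.3.3, and R 4.3.3 with edgeR 4.0.16 (TMM factors) and DESeq2 1.42.0 (size factors) for scaling alternatives alone.

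The members and gene lists were chosen with earlier results of these data known. Outside the 10 members, genes were named by rule: in each list, those with the largest ratios in either direction, and the 8 genes most like the members' mean over the groups. Genes named outside it were chosen after their values were seen. Alternatives changed the fold, the CPM minimum, the added constant, the scaling, the totals, the cells kept by depth or mitochondrial share, and the weight of cells or types. The 2% to 4% mitochondrial window, the marker-based restriction of MatFB-Im,Cuff and, for types within a gate, AdvFB without contractile cells were added after seeing the data.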

Additional observations from a re-analysis of the deposited data

Results flagged for a closer look

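Between AdvFB and MatFB-Im,Cuff, 2 members moved in opposite directions under the same contrast of the GFP-high tdT-negative over the GFP-low gate. Fos had a log2 ratio of 0.053 in AdvFB and -0.070 in MatFB-Im,Cuff. Fosb had -0.28 in AdvFB and 0.15 in MatFB-Im,Cuff. Without the contractile AdvFB cells the AdvFB values were 0.31 for Fos and -0.06 for Fosb. Between the tdT-high and the GFP-high tdT-negative gate, Jun had a log2 ratio of 0.060 in MyoFB-IMR and 0.17 in MyoFB-Ter but -0.11 in MyoFB-Int. Each value rests on 1 library a side, all are short of 1.5-fold, and the differences between types were not tested.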

How the results depend on the processing

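All 10 members stayed 1.5-fold higher in AdvFB and in MatFB-Im,Cuff than in MatFB-Type 2 of the GFP-low gate under every alternative run, and the calls of AdvFB over MyoFB-Int numbered 7 or 8 members. Depth per cell limits what single cells show, and with 1 library a gate the spread between animals or sorts is unknown. No paired analysis was possible because each gate has 1 library, and no library could be left out. The planned restriction to 1 deposited cluster was not run, since that column names the gate alone. Counts of members called changed as follows.

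With 2-fold in place of 1.5-fold, members called higher went from 1 to 0 in AdvFB and MyoFB-IMR between gates, from 4 to 1 in MyoFB-Ter between gates, from 8 to 4 in GFP-high tdT-negative MatFB-Im,Cuff over MyoFB-Int, from 1 to 0 in tdT-high MyoFB-Ter over MyoFB-Int, and over all cells from 2 to 0 (GFP-high tdT-negative over GFP-low) and 1 to 0 (tdT-high over GFP-low). Members called lower went from 1 to 0 in MatFB-Im,Cuff between gates, from 8 to 4 and 8 to 3 in MyoFB-IMR over MyoFB-Int of the tdT-negative and the tdT-high gate, from 1 to 0 in MyoFB-Ter over MyoFB-Int of both gates and in DivFB-S/G2M, from 3 to 0 in DivFB-G2M and from 1 to 0 over all cells of the tdT-high over the GFP-high tdT-negative gate.

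Among cells of 2% to 4% mitochondrial UMIs, AdvFB between gates went from 1 higher and 1 lower to 0 and 3, and MatFB-Im,Cuff from 1 and 1 to 0 and 8, with Atf3 turned from 1.50 to -0.32 on the log2 scale. MyoFB-IMR between gates went from 1 to 3 higher and MyoFB-Int from 0 to 1. MatFB-Im,Cuff over MyoFB-Int went from 8 to 2 higher and 0 to 2 lower, and its median from 0.90 to -0.10, with Fos at -0.15, Fosb at -0.053, Junb at -0.40 and Ier2 at -0.55. DivFB-S/G2M went from 1 to 3 lower. Over all cells, tdT-high over GFP-high tdT-negative went to 2 higher and 0 lower, and GFP-high tdT-negative over GFP-low to 0 higher and 1 lower.

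Among cells of 10000 to 30000 UMIs, MatFB-Im,Cuff between gates went from 1 to 3 higher and MatFB-Type 1 over MatFB-Type 2 from 0 to 1 higher. DivFB-S/G2M went from 1 to 8 lower, on 29 cells. TdT-high MyoFB-Ter over MyoFB-Int went from 1 to 0 lower, and all cells of GFP-high tdT-negative over GFP-low from 2 to 4 higher. With cells thinned to 5000 UMIs, calls lower went from 1 to 2 in MatFB-Im,Cuff and 0 to 1 in MyoFB-Ter between gates, from 0 to 1 in MatFB-Im,Cuff over MyoFB-Int (5 higher in place of 8), and from 1 to 0 over all cells of the 2 GFP-high gates. Calls higher went from 1 to 0 in tdT-high MyoFB-Ter over MyoFB-Int, and over all cells from 2 to 4 and 1 to 2 against the GFP-low gate. The mean of per-cell CPM gave 1 lower in MatFB-Im,Cuff over MyoFB-Int, 0 lower over all cells of the 2 GFP-high gates, and 4 and 2 higher against the GFP-low gate.

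A minimum of 50 CPM left 0 higher in MyoFB-IMR between gates. Cells of at most 5% mitochondrial UMIs gave 2 higher there and 1 higher over all cells of GFP-high tdT-negative over GFP-low. Totals without mitochondrial, ribosomal and haemoglobin genes gave 1 lower in MyoFB-Ter between gates and 2 lower over all cells of the 2 GFP-high gates. With no CPM minimum, MatFB-Type 1 over MatFB-Type 2 had 5 lower in place of 3. TMM and size factors each gave 5 lower in DivFB-G2M in place of 3. Weighting types alike kept only types of at least 50 cells in both libraries. With the MyoFB types alone, tdT-high over GFP-high tdT-negative had 2 higher and 0 lower, with Jun at 0.039 in place of -0.64. With AdvFB and MatFB-Im,Cuff alone, GFP-high tdT-negative over GFP-low had 0 higher and 1 lower, with Ier3 at -0.37 in place of 0.71. Of the members' log2 ratios under the alternatives, 7 changed direction after a call. The cause was not tested, except that fewer cells, genes or a stricter fold are what those alternatives set.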
